A study of Mus musculus with 12 samples.

Results

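The mitochondrial respiratory chain is built mostly from proteins whose genes lie in the nucleus, and 69 such genes are described here in lineage-traced brown adipocytes and mammary myoepithelial cells of the mouse. The members are the protein-coding genes whose mouse symbol begins with Ndufa, Ndufb, Ndufc, Ndufs, Ndufv, Uqcr, Cox4i, Cox5, Cox6, Cox7 or Cox8, together with Sdha, Sdhb, Sdhc, Sdhd and Cyc1, and without the assembly factors named Ndufaf. The 69 genes are a subset of 38924 genes in the count files, 21226 of them protein-coding. They hold 36 genes of complex I, 4 of complex II, 9 of complex III and 20 of complex IV, with Ndufa4 and its paralog Ndufa4l2 placed in complex IV.

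Bulk RNA sequencing counts came from 12 libraries of sorted cells, in 6 groups of 2 (n = 2 per group). All mice were of the C57BL/6 strain and carried the ROSAmTmG reporter, which turns green (GFP) in cells that have carried an active Cre recombinase and in all their descendants, so a GFP-positive cell need not express the driver gene when it is sorted. GFP-positive brown adipocytes came from 8-week-old virgin females of a Myf5-Cre line and of a Ucp1-iCre line. From each line also came GFP-positive and GFP-negative myoepithelial cells, taken at lactation day 10 from the gate Lin-, CD24+, CD29hi. In brown fat, then, both groups carry the label, and age and reproductive state differ between the tissues along with the cell type. The series' design gives n = 2 beside the mice of each group. It does not say whether a library is 1 animal or a pool, nor whether GFP-positive and GFP-negative libraries of a line share mice, so each p-value reflects how far these samples spread, which may be technical in part.

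Complex I oxidises NADH and complex II oxidises succinate, and both pass electrons to ubiquinone. Complex III hands them on to cytochrome c, and complex IV, cytochrome c oxidase, gives them to oxygen. In brown adipocytes this chain works at a high rate because uncoupling protein 1, encoded by Ucp1, lets the proton gradient run down as heat. Several complex IV subunits exist as paired isoforms, of which Cox7a1 and Cox8b are known from heart, skeletal muscle and brown fat, and Cox4i2 and Ndufa4l2 are known as hypoxia-responsive and from mural cells of vessels.

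The sequence before the start site is shown for 2 isoform pairs, whose levels part most between the tissues, and for a pair of genes that carry the same motif but lie on opposite sides of 0 in the tissue comparison. The promoters come from RefSeq (build GRCm38.p6, the mm10 assembly), which held an entry for 54 of the 69 members, and each line gives the 250 bases before the annotated start, 5′ to 3′. Capitals mark matches to the motif of nuclear respiratory factor 1 (NRF1) on either strand. Cox7a1 lies at chr7:30183921-30184170, plus strand, and Cox7a2 at chr9:79759854-79760103, minus strand. Cox8b lies at chr7:140900447-140900696, minus strand, and Cox8a at chr19:7217617-7217866, minus strand. Sdha lies at chr13:74350241-74350490, minus strand, and Ndufb4 at chr16:37654369-37654618, minus strand.
Cox7a1: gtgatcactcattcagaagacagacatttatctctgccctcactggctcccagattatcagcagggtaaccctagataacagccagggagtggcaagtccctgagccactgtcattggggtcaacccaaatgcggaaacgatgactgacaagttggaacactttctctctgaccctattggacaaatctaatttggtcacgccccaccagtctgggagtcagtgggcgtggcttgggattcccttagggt
Cox7a2: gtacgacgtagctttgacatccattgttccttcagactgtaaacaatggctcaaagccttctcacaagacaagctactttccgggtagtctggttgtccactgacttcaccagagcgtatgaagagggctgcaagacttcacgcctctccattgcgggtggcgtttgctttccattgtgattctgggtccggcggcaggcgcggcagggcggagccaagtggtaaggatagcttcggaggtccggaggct
Cox8b: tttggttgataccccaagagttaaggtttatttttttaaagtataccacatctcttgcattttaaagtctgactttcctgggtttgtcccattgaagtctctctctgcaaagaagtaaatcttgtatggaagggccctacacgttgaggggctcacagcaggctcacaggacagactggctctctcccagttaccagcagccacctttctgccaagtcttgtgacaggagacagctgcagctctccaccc
Cox8a: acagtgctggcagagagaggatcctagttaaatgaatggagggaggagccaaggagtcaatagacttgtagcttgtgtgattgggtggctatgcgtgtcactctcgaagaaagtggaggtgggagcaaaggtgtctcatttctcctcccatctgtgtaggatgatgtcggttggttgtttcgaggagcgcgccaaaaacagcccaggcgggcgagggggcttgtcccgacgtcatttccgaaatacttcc
Sdha: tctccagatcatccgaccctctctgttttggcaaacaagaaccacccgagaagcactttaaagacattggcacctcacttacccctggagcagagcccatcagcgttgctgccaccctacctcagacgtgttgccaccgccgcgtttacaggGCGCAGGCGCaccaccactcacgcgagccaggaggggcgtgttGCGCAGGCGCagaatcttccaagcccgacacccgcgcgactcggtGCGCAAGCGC
Ndufb4: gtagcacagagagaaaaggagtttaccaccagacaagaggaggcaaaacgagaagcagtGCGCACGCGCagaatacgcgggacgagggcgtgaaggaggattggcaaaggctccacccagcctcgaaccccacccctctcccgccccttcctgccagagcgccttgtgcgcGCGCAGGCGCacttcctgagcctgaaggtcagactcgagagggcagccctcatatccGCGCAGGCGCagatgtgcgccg
Sdha and Ndufb4 each held 3 such matches in this stretch, and the 4 isoform promoters held none of that motif.

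Over the window from 250 bases before to 50 bases after the start, the NRF1 motif occurred in 11 of the 54 members (20.4%), against 5.19% of the 27025 genes with a promoter in the table. Those members were Cox6a1, Ndufa11, Ndufa5, Ndufa6, Ndufa8, Ndufb4, Ndufs5, Ndufs6, Sdha, Sdhd and Uqcrc1. AAGATGGC, the YY1 motif, occurred in 7 of 54 members (13%), against 3.19% of genes, and CCGGAAGT, an ETS or GABP motif, in 4 (7.41%), against 4.31%. CAAGGTCA, an estrogen-related receptor motif, occurred in Ndufs5 and Sdhd alone, 2 of 54 members (3.70%), against 1.76% of genes. All 4 motifs were searched on both strands, and 0 pairs of matches to different motifs overlapped in the members. The median log2 fold change of brown adipocytes over GFP-negative myoepithelial cells was 3.11 for the members with the NRF1 motif and 2.89 for those without. With and without the other motifs it was 2.88 and 2.93 for YY1 and 2.98 and 2.89 for ETS. For the estrogen-related receptor motif, held by 2 members, it was 1.23 and 2.90. A match is a stretch of letters, not a measured binding site. Member promoters had a median G and C content of 56.2% over the 250 bases before the start, against 52.4% over all promoters. The part of base content in the motif shares was not tested, and the 27025 genes were not limited to those with counts here.

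Library totals ran from 11027738 to 32956480 counts. Expression is given as CPM, a gene's count relative to its library's total, scaled with TMM factors. Both GFP-positive mammary libraries of the Ucp1 line differed from the rest, with 10909 and 10560 genes holding a count and a replicate correlation of 0.69 on the log2 scale over tested genes, while the other groups held 13761 to 19794 such genes per library and correlated at 0.845 to 0.984. Keratin genes of myoepithelial cells, Krt5 and Krt14, had 0 counts in all 4 brown adipocyte libraries. In the myoepithelial gate Krt14 reached 492.7 to 830.9 CPM in the 4 GFP-negative libraries but 3.99 to 162 CPM in the 4 GFP-positive ones, and none of the GFP-positive libraries had a count for Ucp1. The luminal and milk marker sum ranged from 13430 to 31030 CPM in GFP-positive and from 49030 to 95020 CPM in GFP-negative libraries, so luminal transcripts were present in every mammary library. Fibroblast markers summed to 15280 and 5638 CPM in the Myf5 GFP-positive libraries, against 303.1 to 1247 CPM in the 4 GFP-negative ones. Endothelial markers summed to 687.3 and 919.3 CPM in Myf5 GFP-positive, 3217 and 5007 CPM in Ucp1 GFP-positive and 2658 to 3466 CPM in GFP-negative libraries. In the same order, 8 myoepithelial markers summed to 2541 and 3881, 1243 and 3004, and 7615 to 14900 CPM. The mammary groups are named by their gate, and other cells were not excluded.

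Brown adipocytes carried more respiratory chain transcript than any mammary group. The 69 members summed to 63810 and 64770 CPM in Myf5 brown adipocytes and to 20090 and 37390 CPM in Ucp1 brown adipocytes. The sums were 8038 and 4717 CPM in Myf5 GFP-positive, 2314 and 2278 CPM in Ucp1 GFP-positive, 7018 and 6064 CPM in Myf5 GFP-negative and 3570 and 4577 CPM in Ucp1 GFP-negative myoepithelial cells. Every brown adipocyte library lay above every mammary library, the lowest of them, Ucp1 brown adipocyte replicate 1, by more than the whole span of the mammary sums. In bulk RNA, fewer cells of a type and less RNA per cell cannot be told apart.

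**Figure D1:**
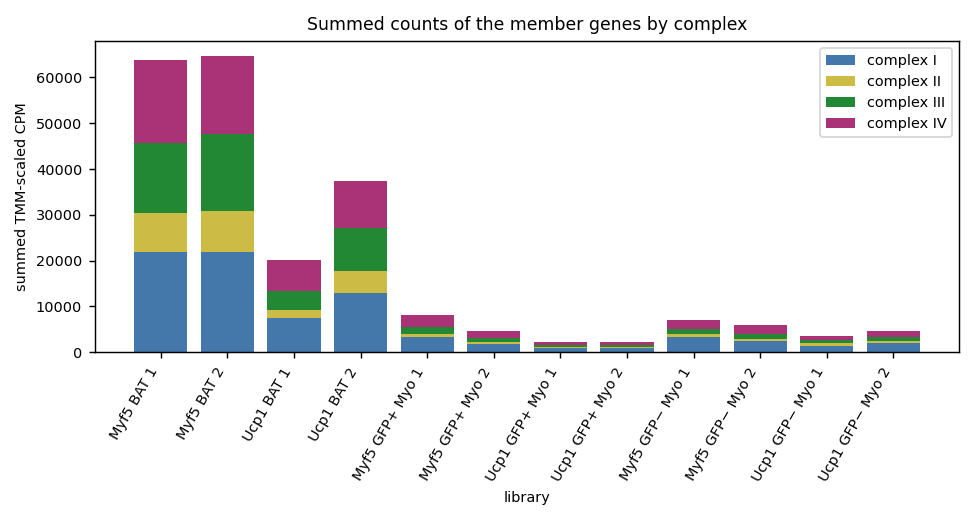
Summed TMM-scaled CPM of the 69 genes in each of the 12 libraries, stacked by complex. The 4 brown adipocyte libraries (BAT, left) hold 20090 to 64770 CPM, and the 8 myoepithelial libraries (Myo, right) 2278 to 8038 CPM.

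The mean of the brown adipocyte libraries over that of the GFP-negative myoepithelial libraries was 8.77. The ratio was 7 for complex I, 11.5 for complex II, 12 for complex III and 8.47 for complex IV. Without TMM scaling the ratio over all members was 6.02, and as a share of the counts of nuclear protein-coding genes it was 7.82. By that share, the members took 5.67% and 5.85% in Myf5 brown adipocytes and 2.80% and 4.13% in Ucp1 brown adipocytes, against 0.402% to 0.733% in the 4 GFP-negative libraries. The summed 13 protein-coding genes of the mitochondrial chromosome had a ratio of 25.3. They summed to 313300 and 268000 CPM in Myf5 and 356200 and 116100 CPM in Ucp1 brown adipocytes, against 8352 to 12110 CPM in GFP-negative myoepithelial cells. Of these genes, mt-Co2, mt-Co3 and mt-Atp6 stayed at 3.57 to 39.6 CPM in all 8 mammary libraries, against 11070 to 68110 CPM in brown adipocytes, and without these 3, left out after their values were seen, the ratio was 13.8. Whether read alignment or counting differed between the tissues was not tested.

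Of the 69 members, 66 passed the filter on low counts, and those untested were Cox6a2, Cox7b2 and Cox8c. Cox7b2 and Cox8c, known as testis isoforms, had 0 counts in all 12 libraries, which allows up to 0.091 to 0.272 CPM at 3 counts per library, counting error only. Between brown adipocytes and GFP-negative myoepithelial cells (4 libraries each, both drivers weighted equally), 55 of the 66 tested members rose and 3 fell in edgeR's quasi-likelihood test at a Benjamini-Hochberg adjusted p under 0.05. Over all 16953 tested genes, 12% rose and 14.6% fell. The median log2 fold change was 2.90 for the members and -0.36 for all tested genes. RLE in place of TMM scaling moved the median of all genes by 0.24 (log2) and left the members at 58 calls. The 4 brown adipocyte libraries lay wholly above the 4 GFP-negative libraries for 58 members, against 18.0% of all tested genes, and wholly below for 2, against 19.4%.

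**Figure D2:**
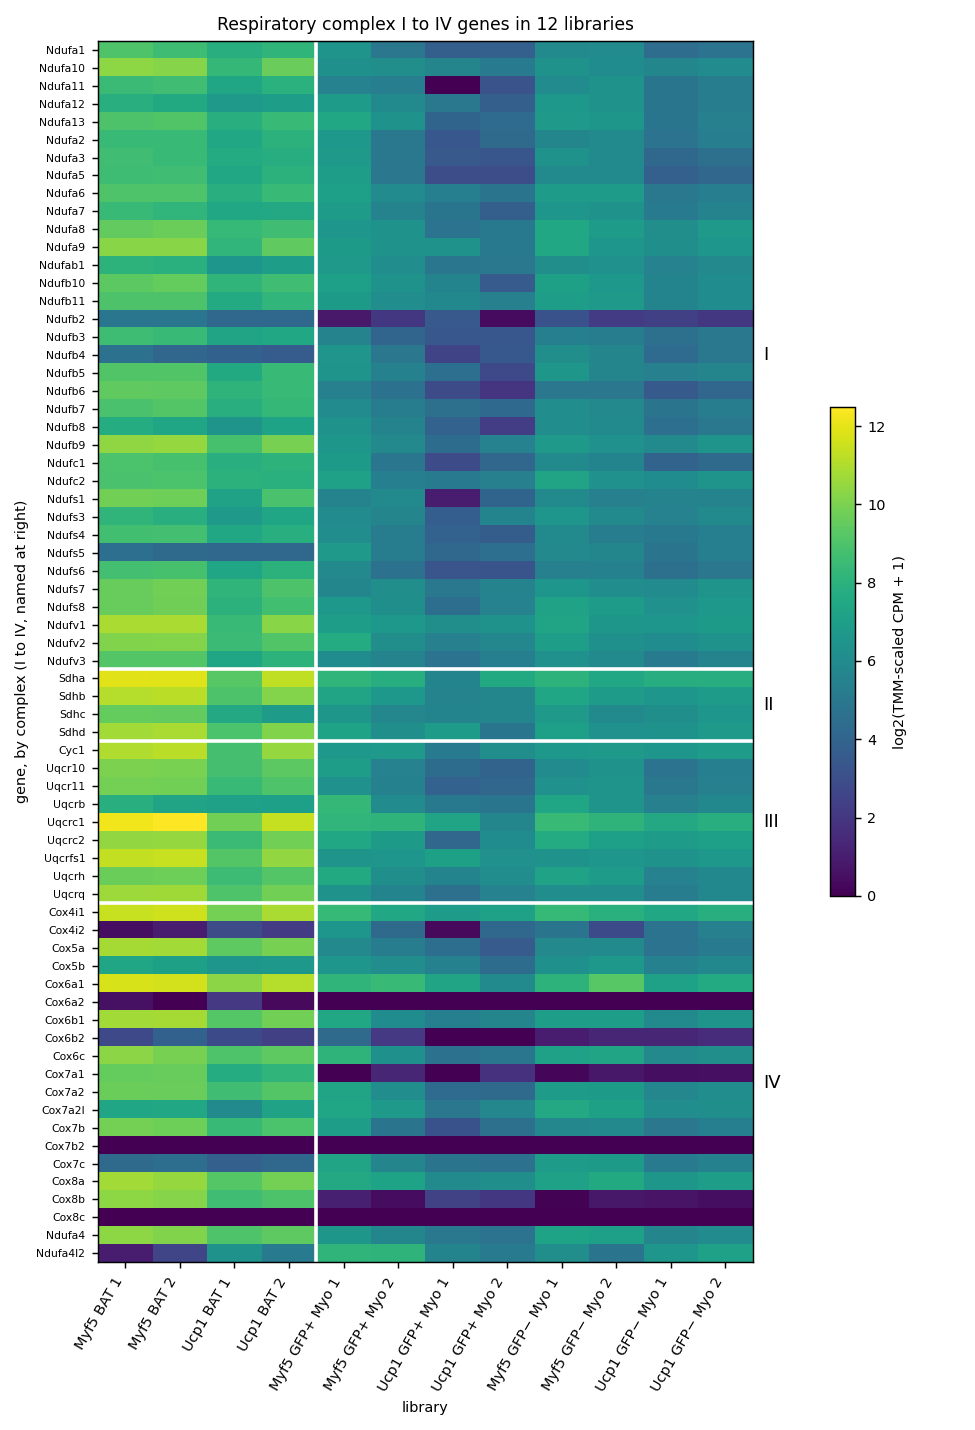
Level of each of 68 genes, as log2 of TMM-scaled CPM plus 1, in the 12 libraries, with complexes I to IV from top to bottom. The 4 brown adipocyte columns at left are brighter than the 8 myoepithelial columns for most genes, while Cox4i2, Cox7c, Ndufb4, Ndufs5 and Ndufa4l2 are not.

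In complex I, 32 of 36 subunits rose and 0 fell. Ndufv1, the flavoprotein that accepts electrons from NADH, had 1927 and 1936 CPM in Myf5 and 344 and 1234 CPM in Ucp1 brown adipocytes, against 92.5 to 156.7 CPM in the 4 GFP-negative libraries (log2 fold change 3.44 ± 0.43 SE, edgeR adjusted p = 0.000796). It was lowest in Ucp1 brown adipocyte replicate 1, and its groups did not overlap. Further core subunits, which bind the flavin or the iron-sulfur clusters or sit beside them, rose as well. Their log2 fold changes were 3.42 ± 0.73 for Ndufs1, 3.05 ± 0.40 for Ndufv2, 2.88 ± 0.34 for Ndufs7, 2.29 ± 0.34 for Ndufs8 and 1.58 ± 0.44 for Ndufs3, with edgeR adjusted p from 0.000586 to 0.0275. The Ndufs3 call was lost without any 1 of 7 libraries, at adjusted p up to 0.128 (without Ucp1 GFP-negative replicate 1). The Ndufs1 call was lost without Myf5 GFP-negative replicate 2, at 0.0519, and without Ucp1 GFP-negative replicate 1 or 2, at 0.0542 and 0.0532.

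The accessory subunit Ndufb6, part of the proton-pumping membrane arm, had the smallest p of complex I. It had 687 and 659 CPM in Myf5 and 280.0 and 348.6 CPM in Ucp1 brown adipocytes, against 10.6 to 30.3 CPM in GFP-negative libraries (4.52 ± 0.40, edgeR adjusted p = 0.00019). Complex I subunits not called were Ndufa11, Ndufb2, Ndufb4 and Ndufs5. Ndufa11 and Ndufb2 had estimates above 0 with wide errors, at 2.51 ± 1.02 and 2.29 ± 0.96 (edgeR adjusted p = 0.0992 and 0.11). Their groups did not overlap, at 158.4 to 401 against 28.3 to 80.8 CPM for Ndufa11 and 16.8 to 29.1 against 3.06 to 7.86 CPM for Ndufb2. The Ucp1 GFP-positive myoepithelial libraries, which enter the shared fit, held 0 and 338 counts of Ndufa11 and 274 and 12 of Ndufb2. Their part in the errors was not tested. Ndufb4 had 24.7 and 16.4 CPM in Myf5 and 13.6 and 11.2 CPM in Ucp1 brown adipocytes, against 19.3 to 69.9 CPM in GFP-negative libraries (-1.28 ± 0.49, adjusted p = 0.0856). Ndufs5 had 16.8 to 22.7 CPM in brown adipocytes, against 26.6 to 56.9 CPM in GFP-negative libraries (-1.18 ± 0.42, adjusted p = 0.0674). For Ndufs5 the groups did not overlap, and for Ndufb4 they did.

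All 4 subunits of complex II rose. Sdha, the flavoprotein that oxidises succinate, had 3859 and 3766 CPM in Myf5 and 599 and 2538 CPM in Ucp1 brown adipocytes, against 174 to 265 CPM in GFP-negative libraries (3.49 ± 0.57, edgeR adjusted p = 0.00281). Sdhb, which carries the iron-sulfur clusters, had 2152, 2340, 508 and 1164 CPM in the same order of brown adipocyte libraries, against 92.0 to 163.6 CPM (3.52 ± 0.36, adjusted p = 0.000337). The membrane anchors Sdhd and Sdhc followed at 3.63 ± 0.53 and 2.01 ± 0.33 (edgeR adjusted p = 0.00166 and 0.00286). Sdhc had 748.9 and 725.1 CPM in Myf5 and 183.8 and 119.6 CPM in Ucp1 brown adipocytes, against 58.9 to 106.4 CPM in GFP-negative libraries. The groups did not overlap for any of the 4 genes.

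In complex III, 8 of 9 subunits rose. Uqcrfs1, the Rieske iron-sulfur protein, had 2566 and 2735 CPM in Myf5 and 557 and 1414 CPM in Ucp1 brown adipocytes, against 80.9, 94.1, 82.2 and 100 CPM in GFP-negative libraries (4.18 ± 0.39, edgeR adjusted p = 0.000229). Cyc1, cytochrome c1, had 2014, 2361, 438.0 and 1457 CPM in those brown adipocyte libraries, against 94.4 to 117.2 CPM (3.79 ± 0.45, adjusted p = 0.000634). The small subunits Uqcrq and Uqcr11 rose by 4.25 ± 0.39 and 3.54 ± 0.32, both at an edgeR adjusted p of 0.000208. The core proteins Uqcrc1 and Uqcrc2, members of a protease family that form the matrix side, rose by 3.59 ± 0.48 and 2.74 ± 0.50 (edgeR adjusted p = 0.00102 and 0.00456). Uqcrb, which binds near a ubiquinone site, had 129 to 225 CPM in brown adipocytes, against 43.0 to 163.2 CPM in GFP-negative libraries, with overlapping groups (1.02 ± 0.47, edgeR adjusted p = 0.141).

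Complex IV held both the steepest rises and the only falls. Of 17 tested subunits, 11 rose, 3 fell and 3 were not called. Cox5a, a matrix-side subunit, had the smallest p of all members, with 1765, 1741, 677 and 966 CPM in Myf5 replicates 1 and 2 and Ucp1 replicates 1 and 2 of brown adipocytes, against 25.8 to 59.7 CPM in GFP-negative libraries (4.81 ± 0.37, edgeR adjusted p = 9.21e-05). Its partner Cox5b, a zinc-binding subunit, had 91.7 to 160.2 CPM against 44.3 to 99.4 CPM, with overlapping groups (0.84 ± 0.33, adjusted p = 0.0892). Cox4i1, the common isoform of the largest nuclear-encoded subunit, had 2774, 3027, 937 and 1908 CPM, against 179 to 334 CPM (3.05 ± 0.36, adjusted p = 0.000622).

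**Figure D3:**
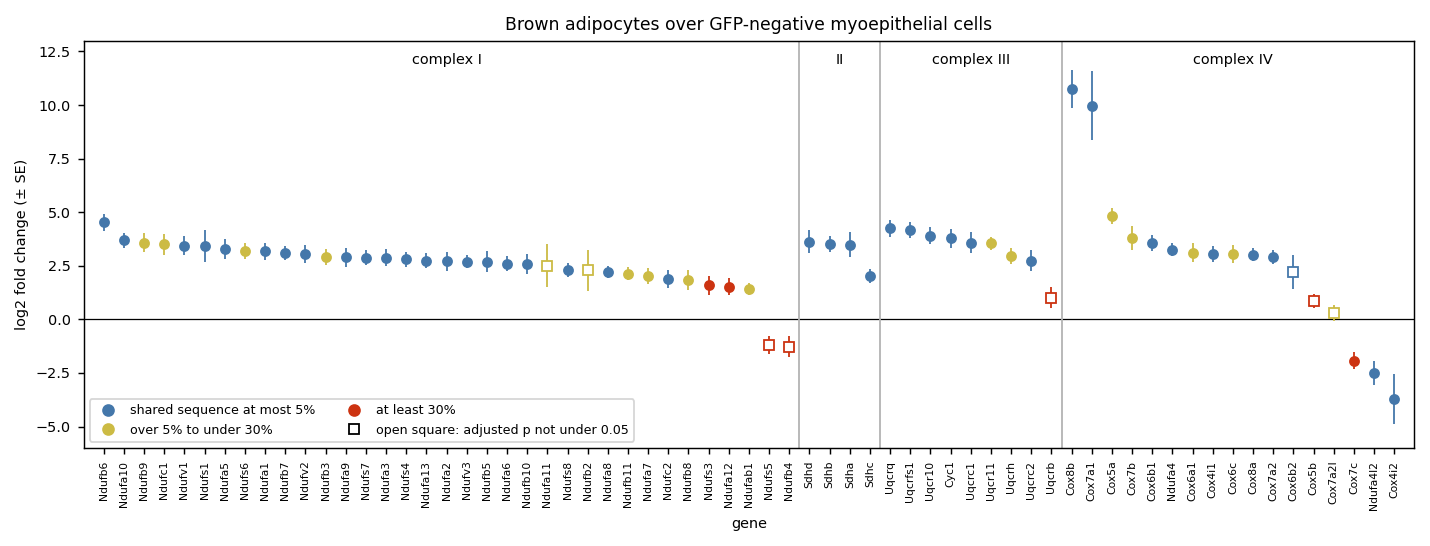
Log2 fold change with its standard error for 65 tested genes, brown adipocytes over GFP-negative myoepithelial cells, sorted within each complex. Colour gives the percent of a gene's transcript sequence found in other genes, and open squares mark genes not called. Cox8b and Cox7a1 stand near 10, and Cox7c, Ndufa4l2 and Cox4i2 are the called genes below 0.

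Cox7a1 and Cox8b were near absent from the mammary libraries. Cox7a1 had 738 and 764 CPM in Myf5 and 212 and 287 CPM in Ucp1 brown adipocytes, against 0.133 to 0.769 CPM in GFP-negative libraries, from 3 to 19 counts (log2 fold change 9.98 ± 1.59 SE, edgeR adjusted p = 0.00243). Cox8b had 1336 and 1179 CPM in Myf5 and 408 and 511 CPM in Ucp1 brown adipocytes, against 0.0444 to 0.769 CPM in GFP-negative libraries, from 1 to 19 counts (10.74 ± 0.88, adjusted p = 0.000124). The common partners Cox7a2 and Cox8a rose as well, by 2.90 ± 0.33 and 3.01 ± 0.30 (edgeR adjusted p = 0.000552 and 0.000311). Brown adipocytes thus held both forms of each pair. Per transcript length, Cox7a1 made up 59.9% and 61.9% of Cox7a1 plus Cox7a2 in Myf5 and 47.3% and 46.4% in Ucp1 brown adipocytes. Cox8b made up 54.7% and 55.5% of Cox8b plus Cox8a in Myf5 and 51.4% and 45.1% in Ucp1 brown adipocytes.

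In the 8 myoepithelial libraries Cox7a1 made up 0% to 17.9% and Cox8b 0.0487% to 10.1% of the same pairs. The highest shares of both lay in the Ucp1 GFP-positive libraries, where Cox8b had 125 and 126 counts and Cox7a1 had 0 and 100 counts. Since skeletal muscle also uses these isoforms, the sum of 10 skeletal muscle markers is given: 229.9 and 342.8 CPM in Myf5 brown adipocytes, 258.3 and 83.3 CPM in Ucp1 brown adipocytes, and 12.9 to 67.3 CPM in the 8 myoepithelial libraries. Mb, myoglobin, gave 143.9 and 325.4 CPM of these sums in Myf5 and 19.1 and 66.2 CPM in Ucp1 brown adipocytes. All 10 markers had counts in at least 1 brown adipocyte library, and the part of muscle RNA in the Cox7a1 and Cox8b levels was not tested. Cox6a2, the muscle isoform of subunit 6a, had 0.488 and 0 CPM in Myf5 and 3.26 and 0.255 CPM in Ucp1 brown adipocytes, from 31 counts at most, and 0 or 1 count in every mammary library. Its partner Cox6a1 was the most abundant member per length in all 6 groups. It had 5696 ± 194 CPM per kb in Myf5 and 2994 ± 1132 CPM per kb in Ucp1 brown adipocytes (SD, n = 2 each). Its means in the 4 mammary groups were 187.4 to 766 CPM per kb.

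**Figure D4:**
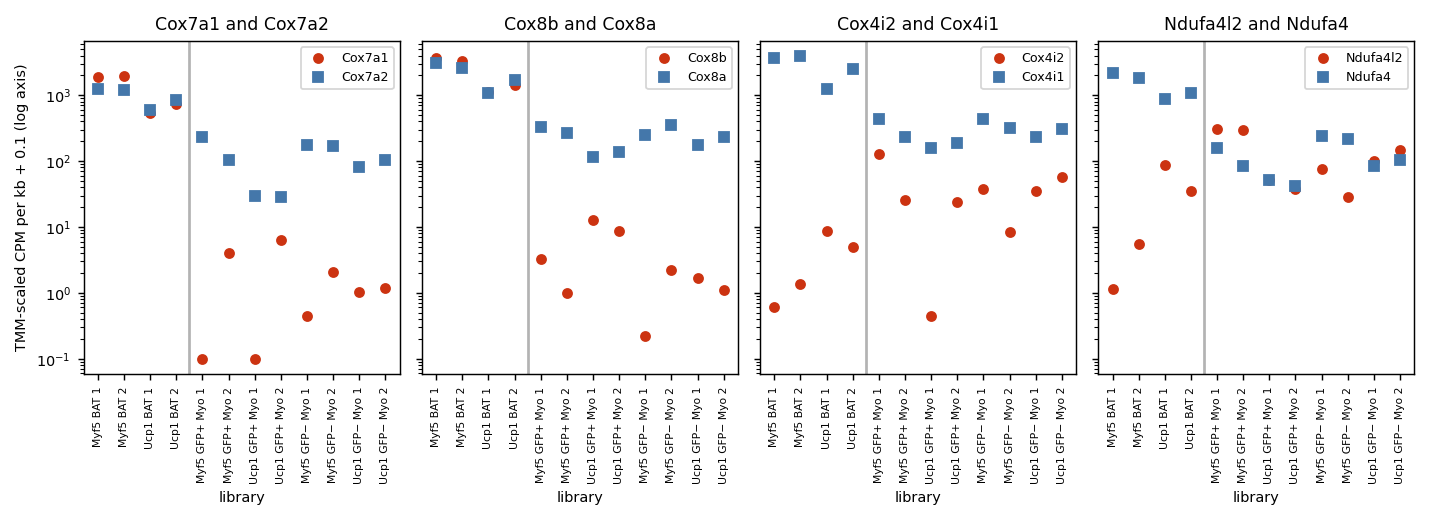
TMM-scaled CPM per kb, plus 0.1, on a log axis for 4 isoform pairs in the 12 libraries, brown adipocytes left of the grey line. Cox7a1 and Cox8b run level with their partners in the 4 brown adipocyte libraries and far below them in the mammary ones, while for Cox4i2 and Ndufa4l2 the tissues overlap.

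Of the other paired subunits, the common forms Cox6a1, Cox6b1 and Cox7b rose by 3.11 ± 0.43, 3.57 ± 0.39 and 3.79 ± 0.55 (edgeR adjusted p = 0.0012, 0.000415 and 0.00154). Cox6b2 had 5.74 and 13.5 CPM in Myf5 and 5.88 and 4.08 CPM in Ucp1 brown adipocytes, against 1.02 to 1.96 CPM in GFP-negative libraries (2.21 ± 0.81, adjusted p = 0.0768). Its groups did not overlap, yet it was not called. Cox7a2l, a factor for supercomplexes rather than a standard subunit, was not called and its groups overlapped (0.31 ± 0.36, edgeR adjusted p = 0.585).

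The isoforms Cox4i2 and Ndufa4l2 fell. Cox4i2 had 0.366 and 0.916 CPM in Myf5 and 6.41 and 3.57 CPM in Ucp1 brown adipocytes, against 27.2 and 6.07 CPM in Myf5 GFP-negative and 26.0 and 41.8 CPM in Ucp1 GFP-negative myoepithelial cells (-3.72 ± 1.17, edgeR adjusted p = 0.0429). The groups overlapped, and the call was lost with RLE scaling, with limma-voom, with the replicate block (adjusted p = 0.0631) and without any 1 of 9 libraries, at adjusted p up to 0.178 (without Ucp1 brown adipocyte replicate 2). Ndufa4l2 had 0.977 and 5.13 CPM in Myf5 and 80.9 and 33 CPM in Ucp1 brown adipocytes, against 70.1 and 26.6 CPM in Myf5 GFP-negative and 94.7 and 138.8 CPM in Ucp1 GFP-negative cells (-2.50 ± 0.57, adjusted p = 0.0119). Its groups overlapped too, through the Ucp1 brown adipocytes, and without replicate 2 of these the adjusted p was 0.0641.

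The sum of 7 pericyte markers was also lowest in Myf5 brown adipocytes, and none of the 7 was at 0 in a whole group. It was 103.0 and 106.4 CPM in Myf5 and 604 and 374 CPM in Ucp1 brown adipocytes. Cspg4, which went the other way, gave 92.9 and 56.5 CPM of the Myf5 brown adipocyte sums. It had 19.85 and 42.86 CPM in Ucp1 brown adipocytes and 9.32 and 18.13 CPM in Myf5 GFP-negative cells. The GFP-positive myoepithelial sums were 2915 and 2573 CPM for Myf5 and 987.5 and 714.3 CPM for Ucp1, and the GFP-negative sums were 673 and 419 CPM for Myf5 and 1495 and 1453 CPM for Ucp1. The part of pericyte RNA in the Cox4i2 and Ndufa4l2 values was not tested. Ndufa4, the common paralog, rose by 3.25 ± 0.31 (edgeR adjusted p = 0.00026).

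Cox7c, a small membrane subunit of complex IV, was the third member that fell. It had 18.7 and 22.1 CPM in Myf5 and 13.3 and 17.7 CPM in Ucp1 brown adipocytes, against 116.4 and 110.1 CPM in Myf5 and 36.2 and 43.7 CPM in Ucp1 GFP-negative cells (-1.92 ± 0.41, edgeR adjusted p = 0.00896). The groups did not overlap, but limma-voom gave an adjusted p of 0.0537. Of its transcript sequence, 42.3% also occurs in other annotated genes, so its counts are uncertain where reads could be split among copies. Members with at least 30% of such sequence were Cox7c, Uqcrb, Ndufs3, Ndufs5, Cox5b, Ndufa12 and Ndufb4. Among these 7, 2 rose and 1 fell, with a median log2 fold change of 0.84. Among the 42 tested members with at most 5%, 39 rose and 2 fell, with a median of 3.05. Over all tested nuclear protein-coding genes the median was -0.43 at up to 5% shared sequence and -0.94 at over 30% to 50%, and its part in the values of single members was not tested. The genes with at most 5% were also classed by transcript length, as short (at most 800 bases) or long (over 1300 bases). The median was 0.859 for 305 short and -0.49 for 11036 long nuclear protein-coding genes. For the 18 short and 15 long members it was 3.03 and 3.42, and the part of length was not tested.

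Within each driver, the same genes were set against GFP-positive myoepithelial cells. In the Myf5 line, 53 of 66 members rose and 3 fell, against 8.84% and 10.9% of all tested genes. The median log2 fold change was 3.25 for the members and -0.14 for all genes. In the length classes above it was 1.07 for short and -0.311 for long genes, and 3.11 and 3.92 for the members of these classes. The members that fell were again Ndufa4l2, Cox7c and Cox4i2. Ndufa4l2 had 0.977 and 5.13 CPM in brown adipocytes, against 283.8 and 275.5 CPM in GFP-positive myoepithelial cells (-6.50 ± 0.97, edgeR adjusted p = 0.00272). Cox4i2 had 0.366 and 0.916 CPM, against 94.7 and 18.9 CPM (-6.44 ± 1.88, adjusted p = 0.0412), a call lost with the replicate block at an adjusted p of 0.0662 and without any 1 of 10 libraries, at up to 0.214 (without Myf5 brown adipocyte replicate 1). The Cox7c call (-2.32 ± 0.58, adjusted p = 0.0243) was lost without any 1 of 5 libraries, at up to 0.156, and with limma-voom, at 0.148. Cox7a1 rose by 9.85 ± 2.23 (adjusted p = 0.0162), a call lost without Myf5 GFP-positive replicate 1, at 0.0661. Cox5a and Ndufa4 had the smallest p among rises, at 5.18 ± 0.53 and 4.03 ± 0.46 (edgeR adjusted p = 0.000779 and 0.00108). Leaving out 1 library gave 40 to 60 called members, the fewest without Myf5 brown adipocyte replicate 1.

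In the Ucp1 line, 59 of 66 members rose and 0 fell over GFP-positive myoepithelial cells, against 22.5% and 5.34% of all tested genes. The median log2 fold change was 3.73 for the members and 0.69 for all genes. In the length classes it was 3.26 for short and 0.256 for long genes, and 4.19 and 3.72 for the members of these classes. Short genes at large thus also rose here, and the part of length in the member values was not tested. With the 4 libraries of this comparison fitted alone, edgeR called 0 members and 0 of 13528 genes, while 56 members had an unadjusted p under 0.05. The 59 calls thus rest on a spread shared with the other groups. In the fit of all 12 libraries 60 of 66 members had an unadjusted p under 0.05, against 6959 of 16953 genes. Cox5a, Uqcr11 and Ndufb6 led the rises, at 5.62 ± 0.54, 4.86 ± 0.48 and 6.12 ± 0.61 (edgeR adjusted p = 0.000637 each). Cox6b2, a testis-type isoform of subunit 6b, had 5.88 and 4.08 CPM in brown adipocytes and 0 counts in both GFP-positive libraries. Against 3 counts in the pooled total it was at least 114-fold higher, counting error only. Ndufa11 had 0 and 338 counts in these GFP-positive libraries, so a count of 0 there need not mean absence. Cox7a1 and Cox8b rose by 7.65 ± 2.03 and 6.91 ± 1.06 (edgeR adjusted p = 0.0226 and 0.00205), and the Cox7a1 call was lost without either brown adipocyte replicate, at 0.0552 and 0.0734. Ndufa4l2 had 80.9 and 33 CPM in brown adipocytes, against 48.8 and 34.9 CPM in GFP-positive cells (0.44 ± 0.76, adjusted p = 0.717), and the difference of this contrast between the drivers was not tested. Both comparisons within a driver use brown adipocyte libraries that also enter the comparison with GFP-negative cells.

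Few members were called for the GFP label inside the myoepithelial gate. In the Myf5 line 0 of 66 members were called by edgeR, as were 0 of all 16953 genes (0%). An unadjusted p under 0.05 occurred for 2 members, against 1573 of the 16953 genes. DESeq2 called 2 members, Ndufa4l2 and Cox6b2, and 4.27% of all genes, and limma-voom called 1, Ndufa4l2, and 3.34% of all genes. Ndufa4l2 had 283.8 and 275.5 CPM in GFP-positive cells, against 70.1 and 26.6 CPM in GFP-negative cells (2.53 ± 0.80, edgeR adjusted p = 0.344). Cox6b2 had 18.7 and 3.27 CPM, against 1.02 and 1.54 CPM (3.10 ± 1.18, adjusted p = 0.449). For both genes the GFP-positive libraries lay wholly above the GFP-negative ones, as they did for 14.5% of all tested genes. They lay wholly below for 7 members, against 20.2% of all genes, and none of the 7 was called. The pericyte marker sum, given above, was also higher in the GFP-positive libraries, and its part was not tested. The median log2 fold change of the members was -0.09, against -0.06 for all genes.

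In the Ucp1 line 0 members rose and 3 fell with the label, while 0.277% of all tested genes rose and 14.0% fell. The median log2 fold change was -0.91 for the members and -0.69 for all genes. In the length classes it was -1.41 for short and -0.646 for long genes, and -0.938 and -0.645 for the members of these classes. Most tested genes, members or not, were thus lower in these GFP-positive libraries. They lay wholly below the GFP-negative libraries for 51 members, against 48.1% of all genes, and wholly above for 1, Cox8b, against 11.8%. Ndufa8, an accessory subunit, had 26.2 and 32.4 CPM in GFP-positive cells, against 71.4 and 106.4 CPM in GFP-negative cells (-1.60 ± 0.39, edgeR adjusted p = 0.0249). Cox7a2 had 19.7 and 18.7 CPM, against 53.0 and 67.5 CPM (-1.65 ± 0.45, adjusted p = 0.0392). Cox6b2 had 0 counts in both GFP-positive libraries, against 1.53 and 1.96 CPM (edgeR adjusted p = 0.0106). It was at least 39.8-fold lower, counting error only. Cox8b lay on the other side, with 4.60 and 3.06 CPM in GFP-positive cells, against 0.571 and 0.367 CPM in GFP-negative cells (3.01 ± 0.91, adjusted p = 0.0553), and DESeq2 called it. DESeq2 and limma-voom each called 6 members, against 24.5% and 30.4% of all genes, and the 4 libraries fitted alone gave 1 call. Leaving out Ucp1 GFP-positive replicate 1 or 2 gave 7 or 9 calls, leaving out Myf5 GFP-positive replicate 1 or 2 gave 6 or 8, and leaving out either Ucp1 GFP-negative replicate gave 1. The Ndufa8 call was lost in 3 and the Cox7a2 call in 10 of the 12 fits without 1 library, at adjusted p up to 0.192 and 0.196. Without the low-count filter and with the compared groups only, both calls were lost, at 0.0567 and 0.0872 for Ndufa8 and 0.0723 and 0.0977 for Cox7a2. The Cox7a2 call was also lost with RLE scaling, at 0.0695, with mitochondrial and milk genes removed, at 0.052, and with the replicate block, at 0.0568.

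The difference between the label effects, Ucp1 line minus Myf5 line, passed the test for 2 of 66 members, both lower, against 0.283% of genes higher and 10.7% lower. They were Ndufa4l2, at -4.01 ± 1.11 (edgeR adjusted p = 0.0477), and Cox6b2 (adjusted p = 0.00793). The Ndufa4l2 call was lost with RLE scaling, at 0.053, with mitochondrial and milk genes removed, at 0.0568, without the low-count filter, at 0.0558, with the replicate block, at 0.0731, and without any 1 of 9 libraries, at up to 0.163 (without Myf5 GFP-negative replicate 2). Ndufa4l2 had 48.8 and 34.9 CPM in GFP-positive against 94.7 and 138.8 CPM in GFP-negative cells of the Ucp1 line, the opposite order to the Myf5 line. The pericyte marker sums ran in the same orders, at 987.5 and 714.3 CPM in GFP-positive against 1495 and 1453 CPM in GFP-negative cells of the Ucp1 line, and at 2915 and 2573 CPM against 673 and 419 CPM in the Myf5 line, and their part was not tested.

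**Figure D5:**
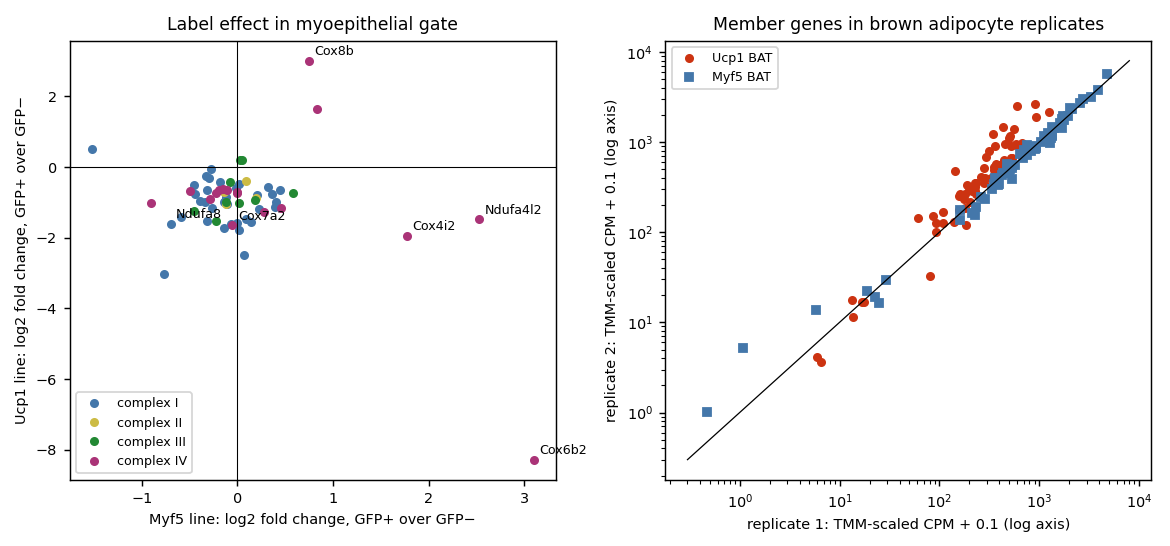
Left, log2 fold change of GFP-positive over GFP-negative myoepithelial cells for 65 tested genes, Myf5 line on the horizontal and Ucp1 line on the vertical axis, coloured by complex. Right, TMM-scaled CPM plus 0.1 of the same genes in replicate 1 against replicate 2 of each brown adipocyte group, on log axes with the line of equality. Ndufa4l2 and Cox6b2 lie at lower right on the left panel, and most Ucp1 points lie above the line on the right panel.

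Between the drivers in brown fat, 64 of 66 members had an estimate below 0, Ucp1 over Myf5, without passing the test. In edgeR 0 of 66 members were called, against 1.29% of genes higher and 0.0236% lower. An unadjusted p under 0.05 occurred for 24 members, against 2213 of 16953 genes. The Ucp1 libraries lay wholly below the Myf5 libraries for 63 members, against 28.3% of all tested genes, and wholly above for 2, Cox4i2 and Ndufa4l2, against 31.3%. The median log2 fold change was -1.03 for the members and 0.00 for all genes. DESeq2 called 10 members, of which 9 were lower and Ndufa4l2 was higher, against 8.77% of all genes, and limma-voom called 0, against 0.248%. The smallest p belonged to Sdhc, with 183.8 and 119.6 CPM in Ucp1 against 748.9 and 725.1 CPM in Myf5 brown adipocytes (-2.28 ± 0.47, edgeR adjusted p = 0.0545), and to Ndufa4l2, with 80.9 and 33 CPM against 0.977 and 5.13 CPM (4.2 ± 0.87, adjusted p = 0.0546).

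The Ucp1 replicates also differed from each other. Replicate 1 over replicate 2 had a median ratio of 0.441 over the 18 core and redox subunits and 0.720 over the 48 other tested members, against 0.974 and 1.02 in Myf5 brown adipocytes. Ndufv1, with 343.6 and 1234 CPM, and Sdha, with 598.6 and 2538 CPM, spread more between the Ucp1 replicates than Cox8b, with 408 and 511 CPM. Their transcripts are also longer, at 1661 and 2900 bases against 360. In replicates 1 and 2, the median log2 of CPM plus 1 was 8.45 and 9.81 for long members and 8.08 and 8.46 for short ones. Over all genes of these length classes it was 3.81 and 3.83 for long and 3.69 and 3.57 for short genes. Core role and transcript length were not separated, and the part of length was not tested. The mitochondrial chromosome sum ran the other way, at 356200 CPM in replicate 1 and 116100 CPM in replicate 2. The 10 brown adipocyte markers summed to 18390 and 17650 CPM in Ucp1 and 36520 and 37220 CPM in Myf5 brown adipocytes, but Fabp4, which mammary libraries also held at 2168 to 14610 CPM, gave 15560 and 7757 CPM of the Ucp1 sums. The 9 other markers were all lower in Ucp1 replicate 1 than in replicate 2. Without Fabp4, left out after its values were seen, the sums were 2836 and 9893 CPM in Ucp1 and 25200 and 28320 CPM in Myf5 brown adipocytes. Endothelial markers summed to 2312 and 1182 CPM in Ucp1, against 10.7 and 287 CPM in Myf5 cells, and erythroid markers to 1148 and 384.8 CPM, against 34.4 and 115.8 CPM. The part of these other cells, or of the lower brown adipocyte markers, in the lower member levels was not tested.

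Of 17 tested ATP synthase genes, 13 rose and 3 fell in brown adipocytes over GFP-negative cells, with a median log2 fold change of 1.61. Here and for the lists that follow, the background is the 12% of all tested genes that rose and the 14.6% that fell. Atp5j2 and Atp5e, subunits of the membrane and stalk parts, rose by 3.55 ± 0.38 and 3.07 ± 0.34 (edgeR adjusted p = 0.000415 and 0.000504). Atp5g2, 1 of 3 genes for the c-ring subunit, had 0 to 0.366 CPM in brown adipocytes, against 48.4 to 103.8 CPM in GFP-negative libraries (-9.44 ± 0.72, adjusted p = 9.21e-05). Of 42 tested assembly factors 23 rose and 0 fell. The smallest p was that of Cox20, which had 83.2 to 102.4 CPM against 0.266 to 0.948 CPM (7.34 ± 0.51, edgeR adjusted p = 7.05e-05). Levels near 0 throughout one tissue also occurred for mt-Co2, a subunit of complex IV made in the mitochondrion. It had 11070 to 43440 CPM in brown adipocytes and 4.33 to 9.65 CPM in all 8 mammary libraries, while mt-Co1 had 17040 to 25100 CPM and 647 to 6123 CPM. For Atp5g2 and Cox20, as for mt-Co2, a difference in read alignment or counting between the tissues was not tested.

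Of 16 genes for mobile carriers and electron entry, 12 rose and 0 fell, with Etfb and Etfa, the electron transfer flavoprotein of fatty acid oxidation, at 3.86 ± 0.35 and 4.02 ± 0.46 (edgeR adjusted p = 0.000208 and 0.000553). Of 15 regulators, 5 rose and 2 fell, against 12% and 14.6% of all tested genes. Ppargc1a, the coactivator PGC-1alpha, had 69.7 and 110.1 CPM in Myf5 and 9.98 and 40.8 CPM in Ucp1 brown adipocytes, against 0.301 to 0.850 CPM in GFP-negative libraries (6.16 ± 1.74, edgeR adjusted p = 0.0283). Gabpa and Gabpb1, partners in the factor that binds the ETS motif above, moved apart, at 1.62 ± 0.31 and -1.99 ± 0.36 (edgeR adjusted p = 0.00577 and 0.00456).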

How the data were processed

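Per the labels' protocols, total RNA was purified by RNeasy Micro columns, copied and amplified by the SMART-Seq v4 low-input chemistry, and read on a HiSeq 2500. TopHat, HTSeq and DESeq2 and the build mm10 are named in the submitters' processing notes. No version, strand setting, annotation release or rule for multiply mapped reads is given in the sources used here. Raw counts are the unit used, as the authors deposited them, per Ensembl gene in 1 file per library.

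Symbols, gene types and transcripts came from GENCODE M21 (mm10), which named 37607 of 38924 genes. Shared sequence is the percent of a gene's 31-base sequences that occur in transcripts of another gene, read every 10 bases for the members and from a sample fixed by content for all genes. The members and gene lists were chosen with earlier results of these data known. Counts were fitted with edgeR 4.0.16 in R 4.3.3 (quasi-likelihood test, TMM factors, filterByExpr at a minimum count of 10) over all 12 libraries with 1 mean per group, and p-values were adjusted by Benjamini-Hochberg over all 16953 tested genes at 0.05. Standard errors were obtained by dividing the absolute log2 estimate by the root of F. Alternatives were RLE factors, removal of mitochondrial and milk genes, no filter, DESeq2 1.42.0, limma-voom (limma 3.58.1), fewer libraries, each library left out, and a block on replicate number. Values per length divide CPM by the length of the APPRIS principal transcript, or the longest coding one where there is none. The test was tried on simulated counts for brown adipocytes over GFP-negative cells. It called few of the smaller changes and also missed many of the largest ones simulated, so a gene not called there may still differ. Any member could be named. Full statistics went to isoform pairs, core and redox subunits and up to 5 members with the smallest adjusted p per direction and comparison, and to up to 3 called genes of each pathway list. Ppargc1a, mt-Co1, mt-Co2, mt-Co3, mt-Atp6, Fabp4, Mb, Cspg4, the keratins and the members not called were chosen for naming after their values were seen. Of the members, 1 is counted in the totals but not reported here by itself, nor drawn as a point or row.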

Additional observations from a re-analysis of the deposited data

Results flagged for a closer look

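For Ndufa4l2 and Cox6b2 the GFP label effect passed a test of its difference between the driver lines, an interaction test in edgeR over all 12 libraries. For Ndufa4l2 the difference, Ucp1 line minus Myf5 line, was -4.01 on the log2 scale (adjusted p = 0.0477). In 2 of 2 Ucp1 GFP-positive libraries it lay at or under 48.8 CPM, against 94.7 and 138.8 CPM in the GFP-negative libraries of that line, and in 2 of 2 Myf5 GFP-positive libraries it lay above 275 CPM, against 70.1 and 26.6 CPM. That call was lost with RLE scaling, at an edgeR adjusted p of 0.053, with the replicate block, at 0.0731, and without any 1 of 9 libraries, at up to 0.163. The pericyte marker sum was 987.5 and 714.3 CPM in Ucp1 GFP-positive against 1495 and 1453 CPM in Ucp1 GFP-negative libraries, and 2915 and 2573 CPM in Myf5 GFP-positive against 673 and 419 CPM in Myf5 GFP-negative libraries, and its part was not tested. For Cox6b2 the fitted difference was -11.4 (adjusted p = 0.00793), a size that depends on the prior count because both Ucp1 GFP-positive libraries had 0 counts. Cox6b2 had 301 and 93 counts in Myf5 GFP-positive libraries, against 23 and 38 counts in Myf5 GFP-negative libraries. In the Ucp1 GFP-negative libraries it had 51 and 64 counts.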

How the results depend on the processing

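No call in the 94 gene results tested turned its direction under any alternative. Of 1846 recomputed gene values, 1690 stayed on the same side of the threshold and 156 lost the call. Members called over GFP-negative cells (58), Myf5 GFP-positive cells (56) and Ucp1 GFP-positive cells (59) stayed within 1.5 times of that number under each alternative other than leaving libraries out, except that the last fell to 0 with only the compared groups fitted. Leaving out 1 library gave 51 to 65, 40 to 60 and 48 to 59 calls for these comparisons. The Myf5 label gave 0 calls, 2 with DESeq2, 1 with limma-voom and 0 to 0 without 1 library. The Ucp1 label gave 3 calls, 6 with DESeq2, 6 with limma-voom, 1 with the compared groups only and 1 to 9 without 1 library. Ucp1 over Myf5 brown adipocytes gave 0 calls, 1 without the low-count filter, 10 with DESeq2, 2 without both Ucp1 GFP-positive libraries, 1 with the compared groups only and 0 to 2 without 1 library. The label difference gave 2 calls and 1 with RLE, with mitochondrial and milk genes removed, without the filter and with the replicate block, and 1 to 5 without 1 library. The causes were not tested. With the replicate number as a block, the other counts were 57, 54, 59, 0, 2 and 0. Same-numbered libraries deviated together at -0.0785 to 0.072, apart from 0.32 between GFP-positive and GFP-negative Myf5 cells. The numbers were not taken as pairs. The block on replicate number was shared by all groups, so a pairing within the Myf5 mammary libraries alone was not fitted. With 2 libraries per group, spread within a group is poorly known, and a lone library left in a group was assumed to vary like the others. Genes at 0 lie under 0.091 to 0.272 CPM by counting error only.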
